A study of Rattus norvegicus with 24 samples.

Results

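Insulin-like growth factor genes were followed in kidney RNA on oligonucleotide arrays: the ligand Igf1, its receptor Igf1r and the binding proteins Igfbp1 to Igfbp7, of which Igfbp5 was read by 5 probe sets that disagreed in direction between strains. A probe set is a group of short probes on the array that reports 1 signal for a stretch of a transcript. All probe sets that the array tables assign to 1 of these 9 genes alone were taken, which gave 9 of 13811 named genes and 18 of 31142 probe sets, 14 on the array RAE230A and 4 on RAE230B. The genes were taken by name, but Igfbp5 was chosen from the disagreement of its probe sets in the strain differences of signal, so that every Igfbp5 value is a description and carries no test.

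The groups were the congenic substrains ET3x2 and ET3x1 and the inbred Dahl salt-sensitive strain SS/jr, called S. Such a congenic substrain carries a chromosome segment of another strain (R, the salt-resistant one) on the S background. All rats were male, ate a 0.4% NaCl diet until they were 39 to 41 days old and then a 2% NaCl diet for 28 days, and gave their left kidneys at 67 to 69 days of age, so that no group on the low-salt diet enters these comparisons. RNA was pooled from 3 rats per pool in ET3x2 (pools I, J, K and L), from 3 in ET3x1 (E, F, G and H) and from 2 in S (A, B, C and D), which gave 4 pools per strain, 32 rats in all and 24 arrays, since each pool was hybridised to both arrays. Signals are whole-kidney values, in which fewer cells of a type and less RNA per cell cannot be told apart.

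The proximal tubule markers lay at the top of the arrays, with 5 of 5 genes between the 95.6th and the 99.7th percentile of mean signal, and the thick limb markers Umod and Slc12a1 lay at a median percentile of 94.3. Albumin (Alb), Apoa1 and Ttr, which mark liver, the main source of circulating IGF-1, lay below the signal filter (the 30th percentile of mean signal of an array), while the fourth liver gene, Serpina1, passed it at the 38.8th percentile. Of the podocyte markers Nphs1 lay below the filter, and Podxl, Synpo and Wt1 passed it, at percentiles of 87.2, 87.7 and 38.4 in their brightest probe sets. Pool J of ET3x2 and pools A and B of S were set off from the rest by the beta-actin control, the 5′ minus the 3′ signal of that transcript: on RAE230A it read −1.14 in pool J, −1.27 in pool A and −1.27 in pool B, against −2.10 to −1.66 in the other 9 pools (log2). The GAPDH control did not set pools A and B off, with −0.64 in pool J, −0.81 in pool A and −0.75 in pool B against −1.04 to −0.71 in the other 9 pools on RAE230A, and the dim hexokinase control (mean 5′ signal 5.49) ran the other way, with −2.27, −1.98 and −2.24 in J, A and B against −1.92 to −1.24. Values that moved without these 3 pools are given with and without them where a result rests on them.

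IGF-1 is made in the liver under growth hormone and also locally in tissues, and it acts through a receptor tyrosine kinase, IGF1R, that signals to PI3 kinase and AKT. The IGF-binding proteins hold most of the hormone outside cells, lengthen its life in blood and either limit or favour its access to the receptor, and proteases that cut them release it. In the kidney IGF-1 is known for its part in growth, glomerular filtration and tubular transport, and IGFBP5 is a binding protein that attaches to extracellular matrix.

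The rat RefSeq table (GRCr8) places the 9 genes on chromosomes 14 (Igfbp1, Igfbp3, Igfbp7), 9 (Igfbp2, Igfbp5), 10 (Igfbp4), 7 (Igfbp6, Igf1) and 1 (Igf1r), with 0 of 9 on chromosome 3, where the introgressed segment lies from general knowledge of these strains. Igfbp2 and Igfbp5 are neighbouring protein-coding genes there, as are Igfbp1 and Igfbp3. The 250 bases before the start of Igfbp5 and of Igfbp3 are shown because all 5 Igfbp5 probe sets are assigned to a gene with 1 listed start, and because Igfbp3 holds the difference that passed the test.
Igfbp5, chr9:81914188-81914437, minus strand: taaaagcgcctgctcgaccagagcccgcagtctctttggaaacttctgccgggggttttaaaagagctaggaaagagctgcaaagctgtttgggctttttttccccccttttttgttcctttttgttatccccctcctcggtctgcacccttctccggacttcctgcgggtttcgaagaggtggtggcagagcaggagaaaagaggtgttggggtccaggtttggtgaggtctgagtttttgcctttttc
Igfbp3, chr14:86277945-86278194, minus strand: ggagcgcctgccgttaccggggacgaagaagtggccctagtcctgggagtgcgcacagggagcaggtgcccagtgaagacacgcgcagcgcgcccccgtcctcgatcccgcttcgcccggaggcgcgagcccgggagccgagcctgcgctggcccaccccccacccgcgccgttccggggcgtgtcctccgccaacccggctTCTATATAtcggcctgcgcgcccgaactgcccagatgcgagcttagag
Both are from RefSeq on GRCr8, written 5′ to 3′, and were searched on both strands for TATANA, the letters of a TATA box. A second search looked for the GC box GGGCGG. Capitals mark the Igfbp3 matches, 2 overlapping ones of TATANA whose first bases lie 48 and 46 bases before the start. The Igfbp5 window held neither motif. TATANA occurs in 24.2% and GGGCGG in 30.5% of the 33469 rat windows of this length, so that a match or its absence is a description of the letters only.

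Of the 5 Igfbp5 probe sets, 1387348_at on RAE230A separated ET3x1 from both other strains. On RAE230B, 1396152_s_at and 1397830_at were high in pools A, B and J and nowhere else. In 1387347_at and 1370960_at the strains overlapped. Signals are log2 values, and those of different probe sets cannot be set against each other.
Igfbp5 1387348_at read 10.84, 10.74, 10.33 and 10.48 in ET3x2 pools I to L, 11.87, 11.41, 12.17 and 11.18 in ET3x1 pools E to H, and 10.87, 10.99, 10.78 and 10.42 in S pools A to D. All 4 ET3x1 pools lay above all 8 pools of ET3x2 and S, and ET3x2 and S overlapped. Its mean was 10.60 ± 0.23 in ET3x2, 11.66 ± 0.44 in ET3x1 and 10.76 ± 0.25 in S (SD, n = 4 pools each). The difference was 0.89 for ET3x1 minus S (SE 0.19, 1.86-fold), −1.06 for ET3x2 minus ET3x1 (SE 0.19) and −0.17 for ET3x2 minus S (SE 0.19).

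**Figure D1:**
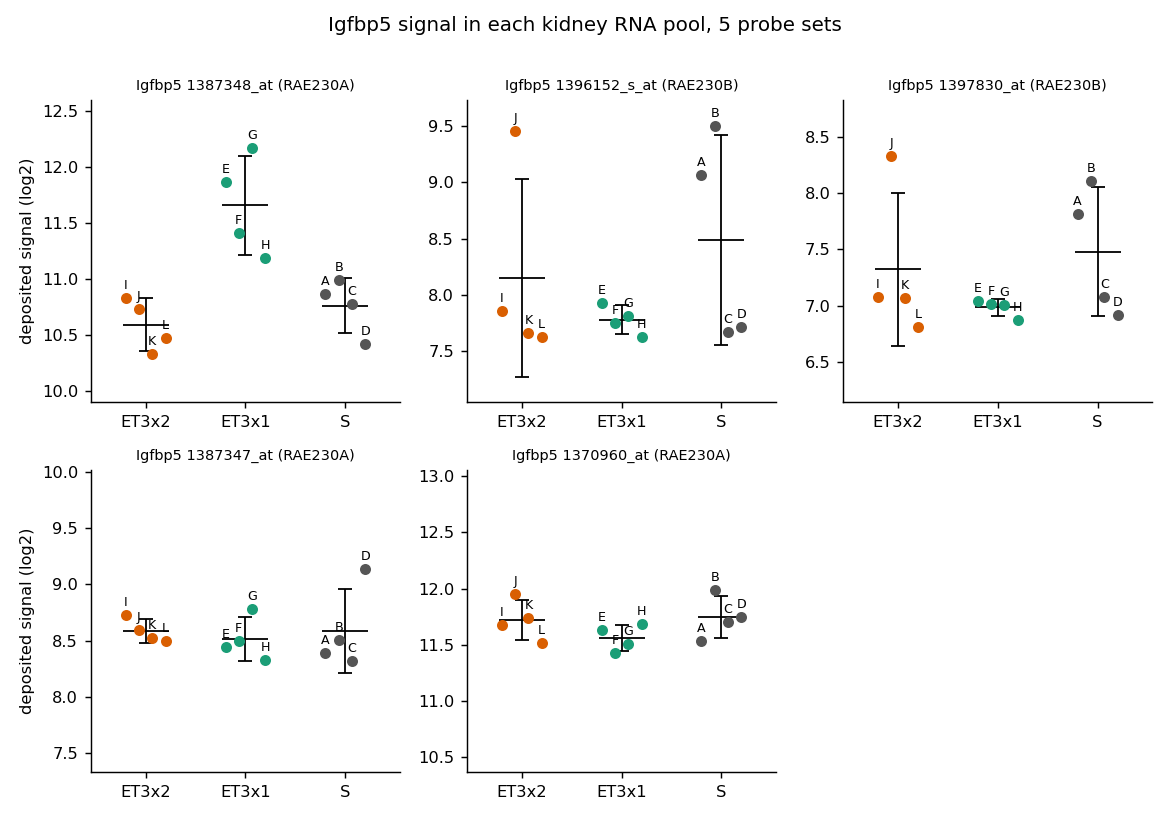
Deposited log2 signal (vertical axis) of the 5 Igfbp5 probe sets in each pool (points, lettered) of ET3x2, ET3x1 and S, with mean and SD (bars); each panel has its own range of equal height. In 1387348_at the 4 ET3x1 pools lie above all others, and in 1396152_s_at and 1397830_at pools J, A and B stand apart.

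Igfbp5 1396152_s_at read 7.85, 9.46, 7.66 and 7.63 in ET3x2 pools I to L, 7.93, 7.75, 7.81 and 7.62 in ET3x1 pools E to H, and 9.06, 9.51, 7.67 and 7.71 in S pools A to D. Igfbp5 1397830_at read 7.08, 8.33, 7.07 and 6.81 in ET3x2, 7.04, 7.02, 7.01 and 6.88 in ET3x1, and 7.81, 8.11, 7.07 and 6.92 in S, in the same order of pools. Pools J, A and B were the 3 highest in both probe sets, and the other 9 pools lay between 7.62 and 7.93 in 1396152_s_at and between 6.81 and 7.08 in 1397830_at. The mean of 1396152_s_at was 8.15 ± 0.88 in ET3x2, 7.78 ± 0.13 in ET3x1 and 8.49 ± 0.94 in S, and that of 1397830_at was 7.32 ± 0.68 in ET3x2, 6.99 ± 0.08 in ET3x1 and 7.48 ± 0.58 in S (SD, n = 4 each). The SD was thus widest in the strains that hold pools J, A and B. Both probe sets were lower in ET3x1 than in S in these means, by a difference of −0.71 (SE 0.44) in 1396152_s_at and −0.49 (SE 0.30) in 1397830_at, opposite in sign to 1387348_at. For ET3x2 minus S the differences were −0.34 (SE 0.44) in 1396152_s_at and −0.16 (SE 0.30) in 1397830_at. For ET3x2 minus ET3x1 they were 0.37 (SE 0.44) and 0.34 (SE 0.30). Without pools A, B and J the difference for ET3x1 minus S was 0.09 in 1396152_s_at and −0.01 in 1397830_at. That of 1387348_at was 1.06. For ET3x2 minus ET3x1 without these pools it was −0.07 in 1396152_s_at, −0.0007 in 1397830_at and −1.11 in 1387348_at. For ET3x2 minus S it was 0.02, −0.009 and −0.05 in the same order.

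The same 3 pools were highest in the actin control on RAE230B, at −1.07 in pool J, −1.39 in pool A and −1.28 in pool B, against −2.11 to −1.52 in the other 9 pools. Fibroblast and matrix markers, 5 of 6 of them past the filter, deviated from their mean by 0.00 in pool J, 0.29 in pool A and 0.20 in pool B (log2, averaged over the genes), against −0.20 to 0.09 in the other 9 pools. Mesangial and pericyte markers, 4 of 5, deviated by 0.09 in pool J, 0.10 in pool A and 0.20 in pool B, against −0.15 to 0.05. Other lists also set pools A and B off. Thick limb markers deviated by −0.02 in pool J, 0.16 in pool A and 0.20 in pool B, against −0.20 to 0.09. Red cell and leukocyte markers were lower in pools A and B than in the other 9. The part of the actin difference or of these cells in the Igfbp5 signals was not tested.

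**Figure D2:**
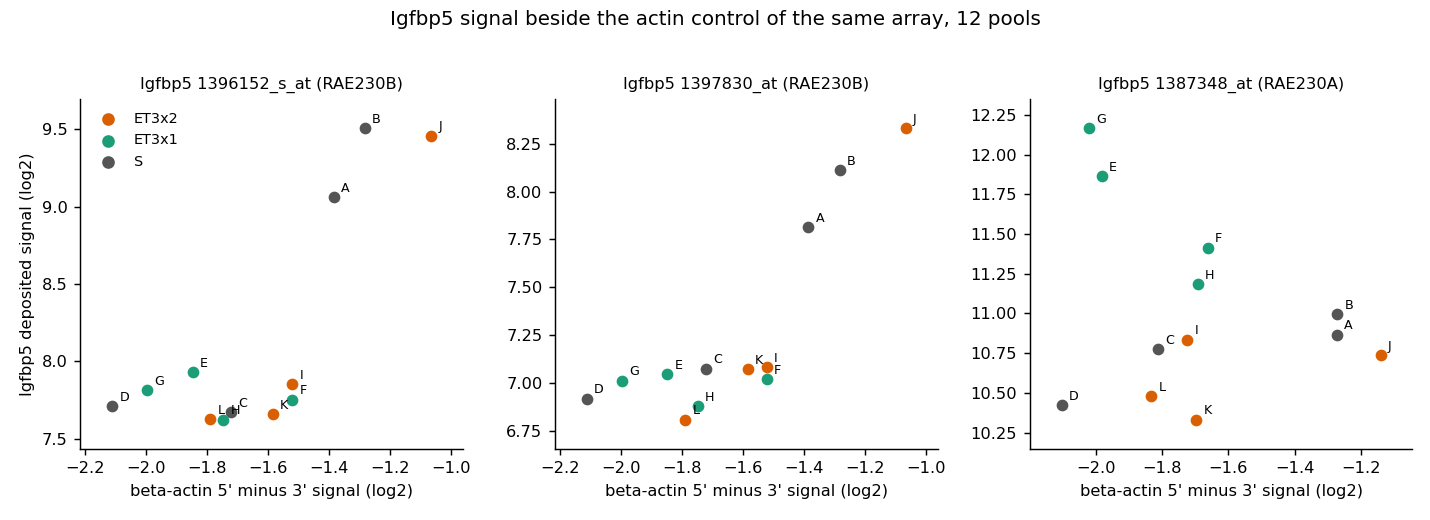
Deposited log2 signal of 3 Igfbp5 probe sets (vertical axis) beside the beta-actin 5′ minus 3′ signal of the same array (horizontal axis, log2) in the 12 pools, coloured by strain. Pools J, A and B lie at the upper right for 1396152_s_at and 1397830_at. For 1387348_at they lie at the right as well, below the ET3x1 pools in signal, with B and A the highest of ET3x2 and S.

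The remaining Igfbp5 probe sets lay on RAE230A. Igfbp5 1387347_at, for which the array's table gives the same source sequence as for 1387348_at, read 8.72, 8.60, 8.52 and 8.49 in ET3x2 pools I to L, 8.44, 8.50, 8.78 and 8.32 in ET3x1 pools E to H, and 8.39, 8.50, 8.32 and 9.13 in S pools A to D. S pool D was the highest of the 12, and the 3 strains overlapped. Its differences were −0.07 for ET3x1 minus S, −0.0013 for ET3x2 minus S and 0.07 for ET3x2 minus ET3x1 (SE 0.15 each). Igfbp5 1370960_at, at the 94.6th percentile of mean signal of its array, read 11.67, 11.95, 11.74 and 11.52 in ET3x2, 11.63, 11.43, 11.51 and 11.68 in ET3x1, and 11.54, 11.99, 11.71 and 11.75 in S. The strains overlapped here too, and the differences were −0.18 for ET3x1 minus S, −0.03 for ET3x2 minus S and 0.16 for ET3x2 minus ET3x1 (SE 0.11 each). Pools B and J were the highest of their strains in 1370960_at, and pool A was the lowest of S. With other processing or with pools left out, the ET3x1 minus S difference of 1370960_at lay between −0.25 and −0.10.

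Counted by sign, 1 Igfbp5 probe set was higher and 4 were lower in ET3x1 than in S, 0 were higher and 5 lower in ET3x2 than in S, and 4 were higher and 1 lower in ET3x2 than in ET3x1. The highest and the lowest of the 5 differences lay 1.60 apart for ET3x1 minus S, 0.34 apart for ET3x2 minus S and 1.43 apart for ET3x2 minus ET3x1 (log2). The strain comparisons share pools, so the counts by sign are not independent of each other. They also rest in part on pools A, B and J. Without these pools the sign of 1396152_s_at turned in every comparison, and that of 1397830_at turned for ET3x2 minus ET3x1. The count for ET3x2 minus S includes a difference of −0.0013 in 1387347_at.

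Across the 12 pools the Igfbp5 probe sets fell into unlike patterns (Pearson r, given as a description over pools that share strains). The RAE230B pair 1396152_s_at and 1397830_at, which have the same source sequence in the array's table, had r = 0.98, and r = 0.54 over the 9 pools other than A, B and J. Igfbp5 1370960_at had r = 0.60 with 1396152_s_at and 0.65 with 1397830_at, and −0.18 and 0.18 over the 9 pools. Igfbp5 1387348_at had r = −0.07 with 1396152_s_at over the 12 pools and 0.64 over the 9. Igfbp5 1370960_at had r = −0.38 with 1387348_at. Although 1387347_at and 1387348_at share a source sequence, their r was −0.10.

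Each Igfbp5 probe set was also set against 1 probe set per other gene of its array, 8126 genes on RAE230A and 4640 on RAE230B. Where a gene had several, the probe set with the highest r was taken. Most like 1387348_at were Zfp91 (r = 0.96), Myo5a, a myosin motor (0.95), and Ppp1r12a, a myosin phosphatase subunit (0.95), and 24 genes had r above 0.9. Most like 1396152_s_at were App, the amyloid precursor protein (0.98), Ankrd40 (0.97) and Aebp1, a protein of the extracellular matrix (0.97), with 65 genes above 0.9. For 1397830_at they were Aebp1 (0.98), Gga2, a trafficking adaptor (0.98), and Pigt (0.98), with 86 genes above 0.9. App was 2.58 higher in pools A, B and J than in the other 9 pools (log2 means), and 1396152_s_at was 1.61 higher. Aebp1 was 1.10, Ankrd40 0.80, Gga2 0.77 and Pigt 0.70 higher there. Zfp91 averaged 7.08 in ET3x2, 8.25 in ET3x1 and 7.25 in S. The r values include such steps between pools or strains, and for these genes r without the steps was not computed. The nearest genes to 1370960_at were Slc14a1, a urea transporter (0.89), Syt11 (0.88) and L1cam, a cell adhesion protein (0.88), with 0 genes above 0.9. Those nearest to 1387347_at were Abcb9, Fam171a1 and Gas1 (0.93 each), with 7 above 0.9. No gene other than Aebp1 stood among the 3 nearest of more than 1 Igfbp5 probe set.

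Igf1, the ligand, was read by 3 probe sets, of which 2 passed the filter. Igf1 1370333_a_at read 9.90, 9.62, 9.67 and 10.28 in ET3x2 pools I to L, 10.10, 10.00, 10.47 and 10.22 in ET3x1 pools E to H, and 9.98, 9.75, 10.52 and 10.40 in S pools A to D. Pools of every strain overlapped, and the pools spread more within ET3x2 and S than within ET3x1 (means 9.87 ± 0.30 in ET3x2, 10.20 ± 0.21 in ET3x1 and 10.16 ± 0.36 in S, SD, n = 4 each). Strain differences of the genes other than Igfbp5 were tested with limma, a linear model fitted over all 21799 probe sets past the filter, and passed at an adjusted p under 0.05. Those of this probe set did not pass, at 0.04 for ET3x1 minus S (SE 0.18, adjusted p = 0.947), −0.30 for ET3x2 minus S (SE 0.18, adjusted p = 0.541) and −0.33 for ET3x2 minus ET3x1 (SE 0.18, adjusted p = 0.391). The 95% interval of the last, −0.71 to 0.04, leaves room for a lower Igf1 signal in ET3x2 as well as for none. Without pools A, B and J the difference of Igf1 1370333_a_at was −0.26 for ET3x1 minus S (adjusted p = 0.642), opposite in sign to the value with them, and −0.51 for ET3x2 minus S (adjusted p = 0.433). Igf1 1388469_at lay between 9.39 and 9.90 in all 12 pools, with the highest in S pool A, and its differences were −0.04 for ET3x1 minus S, −0.14 for ET3x2 minus S and −0.10 for ET3x2 minus ET3x1 (SE 0.097 each, limma adjusted p = 0.874, 0.612 and 0.676). The pair had r = 0.16 over the 12 pools and 0.64 without A, B and J. Igf1 1382599_at lay under the filter on RAE230B, with a mean of 5.44 against a filter level of 6.85, and was not tested.

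Igf1r, the receptor, was read by 1 probe set on each array. Igf1r 1368123_at lay between 9.89 and 10.29 over the 12 pools, all 3 strains overlapped, and its differences were 0.04 for ET3x1 minus S, −0.06 for ET3x2 minus S and −0.10 for ET3x2 minus ET3x1 (SE 0.09 each, limma adjusted p = 0.854, 0.843 and 0.603). Igf1r 1392492_at read 9.60, 9.65, 9.61 and 9.87 in ET3x2 pools I to L, 10.08, 9.94, 9.89 and 10.00 in ET3x1 pools E to H, and 10.25, 9.74, 9.69 and 9.63 in S pools A to D. The 4 ET3x2 pools lay below the 4 ET3x1 pools, and S pool A lay above both. The difference for ET3x2 minus ET3x1 was −0.30 (SE 0.12, unadjusted p = 0.0250, limma adjusted p = 0.349) and did not pass. Of 20 other settings it passed in 1, with array quality weights (−0.35, adjusted p = 0.0357). With those weights 1658 of all tested probe sets passed, beside 323 as reported. The difference for ET3x1 minus S was 0.15 and that for ET3x2 minus S −0.15 (SE 0.12 each, adjusted p = 0.705 and 0.716). Without pool A these 2 differences of Igf1r 1392492_at were 0.29 and −0.01, and without pools A, B and J they were 0.32 and 0.03 (adjusted p = 0.170, 0.992, 0.270 and 0.941). The pair of Igf1r probe sets had r = 0.05 over the 12 pools.

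Igfbp3, which carries most circulating IGF with the acid-labile subunit, was lower in ET3x2 than in ET3x1. Igfbp3 1367652_at read 10.08, 9.77, 9.79 and 9.82 in ET3x2 pools I to L, 10.32, 10.64, 10.51 and 10.54 in ET3x1 pools E to H, and 9.69, 9.86, 10.17 and 10.14 in S pools A to D. The 4 ET3x1 pools lay above all 8 other pools, while ET3x2 and S overlapped. The mean was 9.87 ± 0.14 in ET3x2, 10.50 ± 0.13 in ET3x1 and 9.96 ± 0.23 in S (SD, n = 4 each). ET3x2 minus ET3x1 was −0.64 (SE 0.11, 0.644-fold, limma adjusted p = 0.0160) and passed. The call was lost without ET3x1 pool G (−0.63, adjusted p = 0.0619) and without ET3x2 pool K (−0.61, adjusted p = 0.0805). ET3x1 minus S was 0.54 (SE 0.11, 1.45-fold, adjusted p = 0.0845) and did not pass, and without pools A, B and J it was 0.35 (adjusted p = 0.392). ET3x2 minus S was −0.10 (SE 0.11, adjusted p = 0.792), with a 95% interval of −0.34 to 0.15.

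The other Igfbp3 probe set, 1386881_at, read 10.86, 10.77, 10.67 and 10.79 in ET3x2, 11.01, 11.09, 11.03 and 10.90 in ET3x1, and 10.76, 10.84, 11.10 and 10.79 in S. Its 4 ET3x2 pools also lay below the 4 ET3x1 pools, and S pool C was the highest of the 12. ET3x2 minus ET3x1 was −0.23 (SE 0.09, unadjusted p = 0.0168, limma adjusted p = 0.218), the same sign as in 1367652_at, and did not pass. ET3x1 minus S was 0.13 and ET3x2 minus S −0.10 (SE 0.09 each, adjusted p = 0.516 and 0.701). The pair had r = 0.79 over the 12 pools. Endothelial markers, 4 of 6 of them past the filter, deviated by −0.09 to 0.02 in ET3x2 pools and by −0.07 to 0.14 in ET3x1 pools (log2). Mesangial and pericyte markers deviated by 0.03 to 0.09 in ET3x2 pools and by −0.15 to −0.00 in ET3x1 pools, without overlap. Their separation depended on the probe sets used: Pdgfrb entered with 0.26 for ET3x2 minus ET3x1, while its RAE230B probe sets had −0.03 and −0.04. Acta2 had 0.32, Des 0.10 and Itga8 −0.13. Of both lists 0 markers passed in this comparison, and their part in the Igfbp3 difference was not tested.

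**Figure D3:**
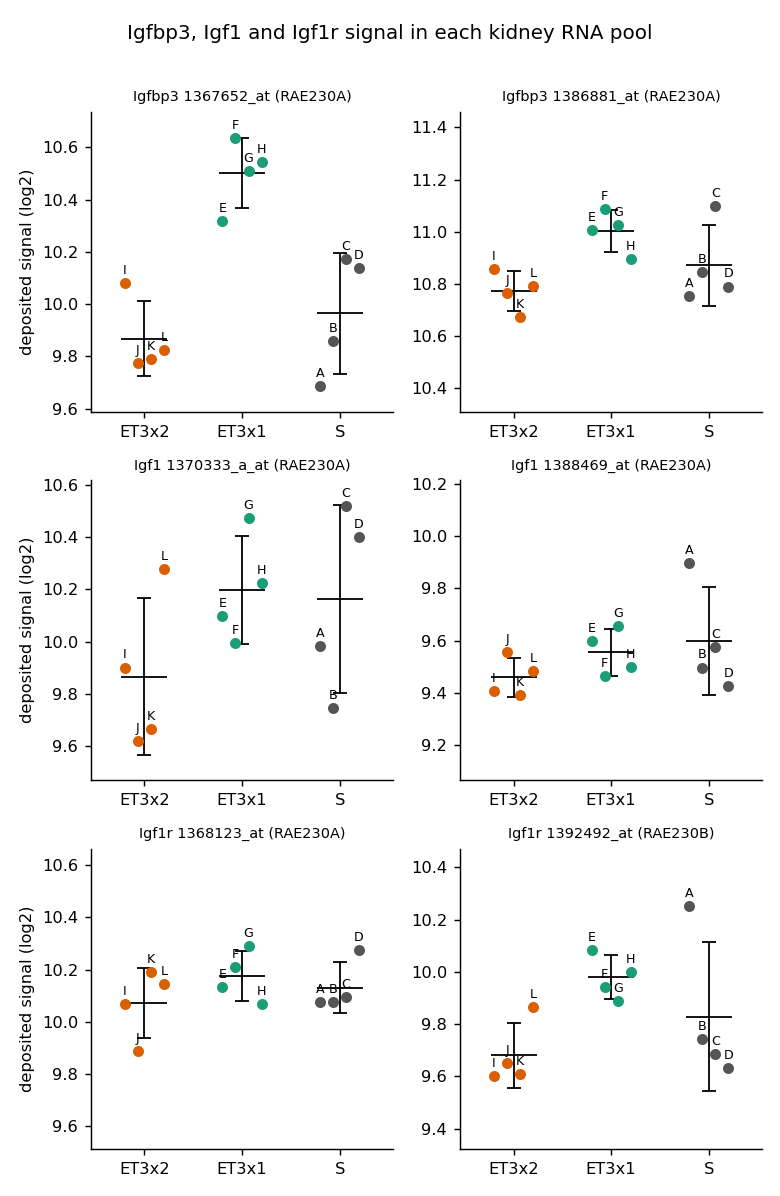
Deposited log2 signal (vertical axis) of Igfbp3, Igf1 and Igf1r probe sets in each pool (points, lettered) of ET3x2, ET3x1 and S, with mean and SD (bars); each panel has its own range of equal height. In Igfbp3 1367652_at the 4 ET3x1 pools, 10.32 to 10.64, lie above all others.

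Igfbp2, the neighbour of Igfbp5 on chromosome 9 and a binding protein found in serum and many tissues, read 10.23, 9.95, 10.14 and 9.97 in ET3x2 pools I to L, 9.73, 10.10, 9.80 and 9.94 in ET3x1 pools E to H, and 9.61, 9.99, 9.95 and 9.70 in S pools A to D. The strains overlapped. ET3x2 minus S was 0.26 (SE 0.11, unadjusted p = 0.0306, limma adjusted p = 0.387) and did not pass, and ET3x2 minus ET3x1 was 0.18 and ET3x1 minus S 0.08 (SE 0.11 each, adjusted p = 0.465 and 0.767). Igfbp4, which limits IGF action until proteases cut it, read 10.90, 10.84, 10.82 and 10.88 in ET3x2, 10.90, 10.91, 10.68 and 10.50 in ET3x1, and 10.58, 10.79, 10.69 and 10.60 in S. The 4 ET3x2 pools lay above the 4 S pools, and ET3x1 spanned both. Its difference for ET3x2 minus S was 0.20 (SE 0.09, unadjusted p = 0.0552, adjusted p = 0.448) and did not pass, and those for ET3x2 minus ET3x1 and ET3x1 minus S were 0.11 and 0.09 (adjusted p = 0.622 and 0.708).

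Igfbp1, the neighbour of Igfbp3 on chromosome 14 and a binding protein that insulin represses in liver, ranged from 9.98 to 10.61 over the 12 pools, with ET3x1 pool F the highest and S pool B the lowest. Its differences were 0.06 for ET3x1 minus S, 0.08 for ET3x2 minus S and 0.02 for ET3x2 minus ET3x1 (SE 0.12 each), with limma adjusted p of 0.868, 0.845 and 0.946. Without pools A, B and J those from S were opposite in sign, −0.10 for ET3x1 and −0.09 for ET3x2 (adjusted p = 0.845 and 0.901). Igfbp7, which binds IGF only weakly and also binds insulin, ranged from 13.86 to 14.27 at the 99.8th percentile of mean signal of RAE230A. The Igfbp7 differences were 0.06 for ET3x1 minus S, 0.08 for ET3x2 minus S and 0.02 for ET3x2 minus ET3x1 (SE 0.08 each, adjusted p = 0.780, 0.749 and 0.926). No 95% interval of these reached beyond 0.24 in either direction. Igfbp6, which prefers IGF-2, ranged from 8.19 to 8.52 in 1372168_s_at, and its differences lay between −0.05 and 0.09 (SE 0.07 each, adjusted p from 0.613 to 0.881). Igfbp6 1387625_at lay under the filter, with a mean of 7.41 against a filter level of 7.52 on RAE230A, and was not tested. Igfbp6 1372168_s_at at 8.33 and Igfbp5 1397830_at, with a mean of 7.26 against the RAE230B level of 6.85, were the dimmest that passed on each array.

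**Figure D4:**
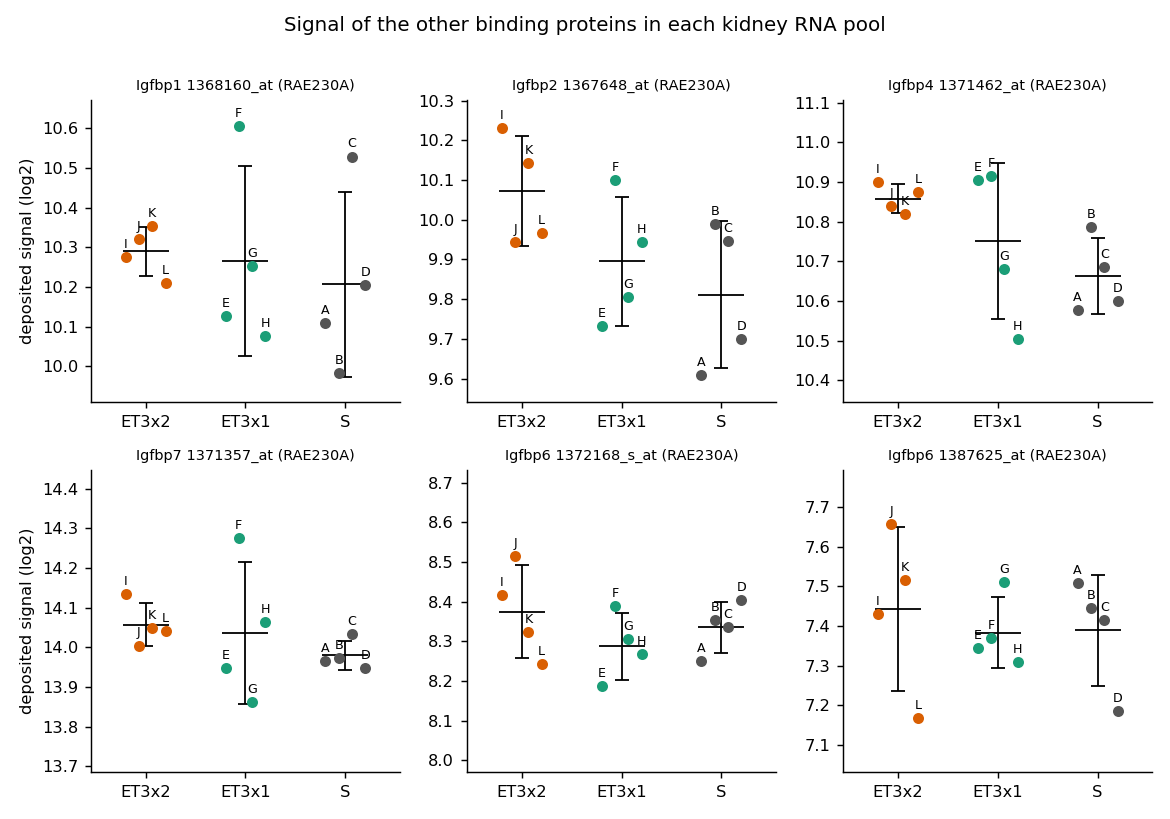
Deposited log2 signal (vertical axis) of Igfbp1, Igfbp2, Igfbp4, Igfbp7 and both Igfbp6 probe sets in each pool (points, lettered) of ET3x2, ET3x1 and S, with mean and SD (bars); each panel has its own range of equal height. The 4 ET3x2 pools of Igfbp4, 10.82 to 10.90, lie above the 4 S pools, and the other panels overlap.

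Of the 18 probe sets, 16 passed the filter. Of these, 11 belong to genes other than Igfbp5 and were tested. For ET3x1 against S, 0 of the 11 passed limma's adjusted test where 0.440% of the 21799 tested probe sets did, and 1 had an unadjusted p under 0.05, as did 11.8% of all. For ET3x2 against S, 0 of 11 passed where 0.344% did, and 1 had an unadjusted p under 0.05, as did 10.9% of all. For ET3x2 against ET3x1, 1 of 11 passed (Igfbp3 1367652_at) where 1.48% did, and 3 had an unadjusted p under 0.05, as did 13.1% of all.
Among the 11 tested probe sets of genes other than Igfbp5, 9 were higher and 2 lower in ET3x1 than in S, 5 were higher and 6 lower in ET3x2 than in S, and 5 were higher and 6 lower in ET3x2 than in ET3x1. Their median difference was 0.06 for ET3x1 minus S, −0.06 for ET3x2 minus S and −0.10 for ET3x2 minus ET3x1, beside medians of −0.0047, 0.02 and 0.03 over all tested probe sets. Signs over all tested probe sets were not counted, and Igfbp3, Igf1 and Igf1r each entered with 2 probe sets. Without pools A, B and J some signs for ET3x1 minus S turned. These were Igf1r 1368123_at (−0.01), Igfbp1 (−0.10), Igf1 1370333_a_at (−0.26) and Igf1 1388469_at (0.05). For ET3x2 minus S, Igfbp1 (−0.09), Igfbp6 (−0.04) and Igf1r 1392492_at (0.03) turned. Pools of the compared strains did not overlap in 1 of the 11 for ET3x1 against S (Igfbp3 1367652_at), beside 6.40% of all tested probe sets. They did not overlap in 1 for ET3x2 against S (Igfbp4), beside 5.95%. For ET3x2 against ET3x1 they did not overlap in 3 (both Igfbp3 probe sets and Igf1r 1392492_at), beside 9.15%.

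**Figure D5:**
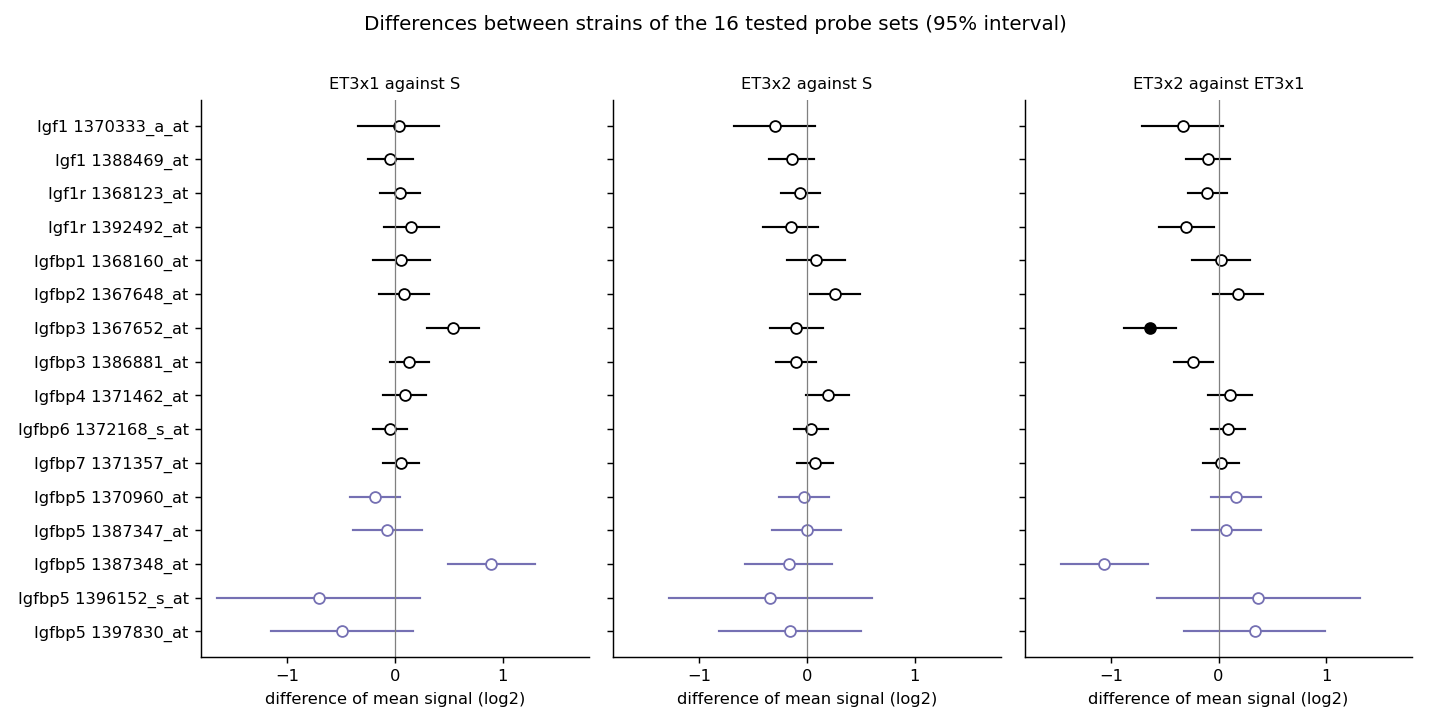
Strain differences of mean log2 signal (horizontal axis) with 95% interval (line) for the 16 probe sets past the filter in the 3 comparisons. Igfbp5 is purple, always drawn open and not read as a test. For the other genes open symbols did not pass and the filled symbol passed. Igfbp3 1367652_at for ET3x2 against ET3x1 is the filled symbol, and the Igfbp5 differences lie on both sides of 0 for ET3x1 against S.

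Of 39 other genes of the pathway, 33 were tested, with 48 probe sets, and 0 passed in each comparison by limma's test. Taking the brightest probe set of each gene, 18 were higher and 15 lower in ET3x1 than in S, 14 were higher and 19 lower in ET3x2 than in S, and 19 were higher and 14 lower in ET3x2 than in ET3x1. An unadjusted p under 0.05 was met by 2, 1 and 8 of the 33 genes, while 11.8%, 10.9% and 13.1% of all tested probe sets met it in those comparisons. Igfals, the acid-labile subunit that binds IGFBP3 in serum, averaged 8.63 ± 0.07 in ET3x2, 8.40 ± 0.17 in ET3x1 and 8.33 ± 0.10 in S (SD, n = 4 each). Its difference for ET3x2 minus S was 0.31 (SE 0.09, limma adjusted p = 0.201), and that for ET3x2 minus ET3x1 was 0.23 (SE 0.09, adjusted p = 0.223), opposite in sign to Igfbp3.

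Among receptors, Igf2r, which clears IGF-2, had the widest difference for ET3x1 minus S, 0.30 (SE 0.10, adjusted p = 0.240), and for ET3x2 minus ET3x1, −0.25 (adjusted p = 0.252), where its second probe set had the opposite sign (0.11, adjusted p = 0.709). Among adaptors, Irs2, which links insulin and IGF receptors to PI3 kinase, had −0.35 for ET3x1 minus S and −0.39 for ET3x2 minus S (SE 0.23 each, limma adjusted p = 0.516 and 0.538). In the kinase arm, Pik3ca, the catalytic subunit of PI3 kinase, had 0.19 for ET3x1 minus S (SE 0.09, adjusted p = 0.512), and its 3 other tested probe sets ranged from −0.16 to 0.42. Foxo1, a transcription factor held out of the nucleus by AKT, had −0.41 for ET3x2 minus S and −0.54 for ET3x2 minus ET3x1 (SE 0.23 each, adjusted p = 0.511 and 0.280). Adamts1, a protease of the matrix, had the widest difference among the proteases and their inhibitors for ET3x2 minus ET3x1, −0.44 (SE 0.19, adjusted p = 0.295). The 4 tested binding partners of IGFBPs, among them fibronectin (Fn1) and the endocytic receptor megalin (Lrp2), passed in 0 of 3 comparisons. In their brightest probe sets 0 of the 4 had an unadjusted p under 0.05. A dimmer probe set of the partner Cav1 had −0.35 for ET3x1 minus S (limma unadjusted p = 0.0392, adjusted p = 0.457), beside −0.0035 in its brightest one. Of the growth hormone signal genes, Stat5b had −0.15 for ET3x1 minus S (adjusted p = 0.435) and Stat5a 0.17 for ET3x2 minus ET3x1 (adjusted p = 0.510). Igf2bp2, an mRNA-binding protein, stayed within 0.03 of 0 in all 3 comparisons in its brightest probe set, and its second one ranged from −0.13 to 0.13. Irs1, Vtn, Igf2bp1, Igf2bp3 and Socs2 lay under the filter, and Pappa was not analysed here.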

How the data were processed

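Affymetrix RAE230A and RAE230B arrays were hybridised with 15 μg of total RNA per pool, primed with oligo(dT), per the labels' protocols. The deposited values are 1 per probe set and pool and were taken as log2 signals because RAE230A spans 4.97 to 15.24 and RAE230B spans 4.10 to 14.28; the authors' summarisation, background correction and normalisation are not given in the sources used here. Medians per column were 8.49 to 8.60 (RAE230A) or 7.55 to 7.62 (RAE230B), and no scaling was added.

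Probe sets were named from the platform table, which gave 1 symbol to 12783 of 15866 and 7564 of 15276 probe sets, several to 312 and 100, and none to 2771 and 7612; 12754 and 7530 matched RefSeq (GRCr8) by gene identifier. Control probe sets (57 per array) and probe sets under the 30th percentile of mean signal were left out. limma 3.58.1 (trended eBayes, R 4.3.3) was fitted to the 12 pools of each array, without covariates, with two-sided p-values and Benjamini-Hochberg adjustment per array and comparison, and tested on simulated data. A pool is 1 replicate. Pools hold different rats, so that p-values measure the spread between pools, and the number of arrays limits precision. All probe sets of the 9 genes are named, and for the pathway list the widest differences by role. The members and lists were chosen with earlier results of these data known. Probe sequences were not analysed here. Normalisation, filter, prior, array weights, strains in the fit and pools left out were varied. Python 3.11.15, pandas 2.3.3 and matplotlib 3.10.9 were used.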

Additional observations from a re-analysis of the deposited data

Results flagged for a closer look

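Over the 54 sets of 4 pools of a strain (18 probe sets, 3 strains), 4 held a pool far from the other 3, with a gap above Dixon's 95% critical value for 4 samples, which chance gives in about 1 in 20 sets. Igfbp5 was chosen from the disagreement of its probe sets, so its set is not read against that rate. Igfbp5 1396152_s_at read 9.46 in ET3x2 pool J, with 7.63 to 7.85 in pools I, K and L. Igfbp3 1367652_at read 10.08 in ET3x2 pool I, above 9.77 to 9.82 in pools J, K and L; without pool I the difference for ET3x2 minus ET3x1 was −0.71. Igf1r 1368123_at read 10.28 in S pool D, above 10.07 to 10.10 in pools A, B and C. Igf1 1382599_at, under the filter, read 5.35 in ET3x1 pool F, with 5.38 in pools E, G and H.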

How the results depend on the processing

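Over 8 alternatives and 12 fits that left out 1 pool each, Igfbp3 1367652_at stayed lower in ET3x2 than in ET3x1 (−0.71 to −0.58, adjusted p = 0.00493 to 0.0805) and passed in 18 of 20, and for ET3x1 minus S it was 0.35 to 0.61 and passed in 0. The count of tested probe sets of the 9 genes past the threshold, Igfbp5 included, was 0 to 1 for ET3x1 against S when 1 pool was left out (the 1, without ET3x1 pool H, is Igfbp5 1387348_at, from which no test is read) and 0 for ET3x2 against S throughout. For ET3x2 against ET3x1 this count, Igfbp5 included, was 2 as reported. Igfbp5 was chosen from the disagreement of its probe sets, so counts that include it are a description and are not read as tests. Without Igfbp5 the count as reported was 1, which is Igfbp3 1367652_at. With Igfbp5 included, it was 0 to 2 when 1 pool was left out (0 without G or K, 1 without E), and it was 3 with array weights. The gap between the highest and lowest Igfbp5 difference was 1.27 for ET3x1 minus S without pools A, B and J (1.60 with them), 0.75 for ET3x2 minus S with array weights (0.34 as reported) and 0.10 (without A) to 0.78 (without D) when 1 pool was left out. The cause was not tested. Igfbp5 1387348_at gave 0.72 to 1.06 for ET3x1 minus S and −1.22 to −0.89 for ET3x2 minus ET3x1. Over all tested probe sets, the count past the threshold was 41 to 164 for ET3x1 against S (96 as reported; 164 with array weights, 51 with only the compared strains, 57 without pool C, 41 without E), 17 to 419 for ET3x2 against S (75 as reported; 419 with array weights, 17 without A, B and J, 42 with only the compared strains, 19 without A, I or K, 21 without C, 36 without L, 44 without E, 140 without J, 167 without D) and 133 to 1658 for ET3x2 against ET3x1 (323 as reported; 1658 with array weights, 133 without K, 146 without E, 197 without G, 204 without I, 488 without F). RefSeq symbols gave the same 18 probe sets. The replicate letters are not shared between strains: No paired analysis was possible because each pool letter belongs to 1 strain.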
